A study of Homo sapiens with 6 samples.

Results

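The genes described here are 43 genes of mitosis, taken by symbol from the 62753 genes of the deposited table: mitotic cyclins and their kinase, Aurora and Polo kinases, spindle checkpoint and kinetochore genes, motors and spindle proteins. RNA was sequenced in 3 sgPARP1 libraries and 3 WT libraries of cells labelled HepG2, a line derived from a human liver carcinoma. In the sgPARP1 cells PARP1, whose product binds DNA breaks and attaches ADP-ribose chains, was targeted with CRISPR-Cas9, and the WT cells carry no such edit. Whether the edited cells are 1 clone or a mixture is not in the labels, and neither is whether replicates were cultured separately, so the p-values rest on a spread that may be purely technical. No treatment and no time point is given for either group. The design asks what the loss of PARP1 does to the transcriptome, and here it is read for the genes of cell division.

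Mitosis is driven by CDK1 bound to cyclin A or B, which is switched on at entry and switched off when the anaphase-promoting complex (APC/C) marks the cyclins for destruction. Most of the genes listed here are transcribed late in the cell cycle, from promoters that the MuvB complex holds silent in resting cells and activates, with B-MYB and FOXM1, in dividing ones. Their RNA levels in a culture follow both the share of cells in the second part of the cycle and the amount made per cell. In bulk RNA these cannot be told apart.

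PARP1 had 4.31, 4.23 and 4.39 FPKM (reads per gene, corrected for gene length and sequencing depth) in sgPARP1 libraries, against 31.8, 31.5 and 31.5 FPKM in WT libraries. Reads assigned to genes, recovered from the FPKM values, summed to 15383400 to 17197118 per library in sgPARP1 and 14842498 to 17305129 in WT. All 17 hepatocyte markers looked at were under 0.5 FPKM, and 10 of them, among them ALB, AFP and APOB, were listed at 0 throughout. Their summed level was 0.0129 to 0.134 FPKM in sgPARP1 and 0.0375 to 0.37 FPKM in WT, so the defining markers of the labelled cell type were at or near 0 in both groups. Summed markers of other cells were 0 to 0.161 FPKM in sgPARP1 and 0.0267 to 0.158 FPKM in WT for 5 leukocyte genes (3 at 0 throughout, CD3E among them). They were 0.212 to 0.267 FPKM and 0.274 to 0.386 FPKM for 4 endothelial genes (KDR at 0 throughout), in the same order of groups. For 6 fibroblast genes the sums were 18.3 to 20.8 FPKM in sgPARP1 and 18.1 to 19.9 FPKM in WT, mostly from COL1A1 and PDGFRB, with COL1A2 and PDGFRA at 0. Of these 6, DCN was lower in sgPARP1, at 0.296 FPKM, against 1.07 FPKM in WT (log2 fold change −0.67, adjusted p = 0.00877). The part of these markers in the results below was not tested.

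Mitotic genes were slightly higher in sgPARP1. Of the 43 genes, 41 averaged 0.5 FPKM or more and were tested as log2(FPKM + 1), a scale on which changes of low genes come out too small. The test called 10 of them higher and none lower (limma, Benjamini-Hochberg adjusted p under 0.05 over 13167 genes), where 3.52% of all genes tested were called higher, 4.44% lower and 7.96% either way. No mitotic gene was lower at an unadjusted p under 0.05 or with voom on recovered reads, while 20 were higher at an unadjusted p, a share that was 12.1% over all genes. In 25 of the 41 every sgPARP1 library lay above every WT library, against 16.1% of all genes, and in 0 every sgPARP1 library lay below, against 14.9%. The median log2 fold change of the 41 was 0.14, against 0.00 over all genes tested, and 38 were above 0, against 50.9% of all genes. The 41 had a median of 29 FPKM and a median within-group coefficient of variation of 4.25%, against 5.04 FPKM and 7.62% over all genes. The shares over all genes given here are not matched for this level or spread. With only the 6601 genes averaging at least 5 FPKM tested, 469 were called higher and 519 lower, and 10 of 39 mitotic genes were called, all higher.

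The rises were small. The ratio of mean FPKM had a median of 1.1 and ran from 0.961 for KIF14 to 1.4 for PRC1, and among the 10 called genes from 1.11 to 1.2. On the tested scale of FPKM + 1, the upper end of the 95% interval of the log2 fold change was at most 0.49, for PRC1. The lowest lower end was −0.238, for KIF14. Since PRC1 is a low gene, whose change comes out too small on this scale, 0.49 does not bound its rise in FPKM. Of the 31 genes not past the test, 10 had an interval that reached 0.263, which is a 1.2-fold rise on this scale. Summed over the 43 genes, the level was 1564 ± 23 FPKM in sgPARP1 and 1421 ± 20 FPKM in WT (mean ± SD, n = 3 each), or 0.680%, 0.716% and 0.669% of the reads of the sgPARP1 libraries and 0.608%, 0.640% and 0.648% of those of the WT libraries. The count of calls rests on all 6 libraries: it was 2, 4 and 1 without sgPARP1 replicate 1, 2 or 3, and 2, 1 and 1 without WT replicate 1, 2 or 3, where the count over all genes also fell, to 412 to 652 from 1048. The median moved little, between 0.119 and 0.148.

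**Figure D1:**
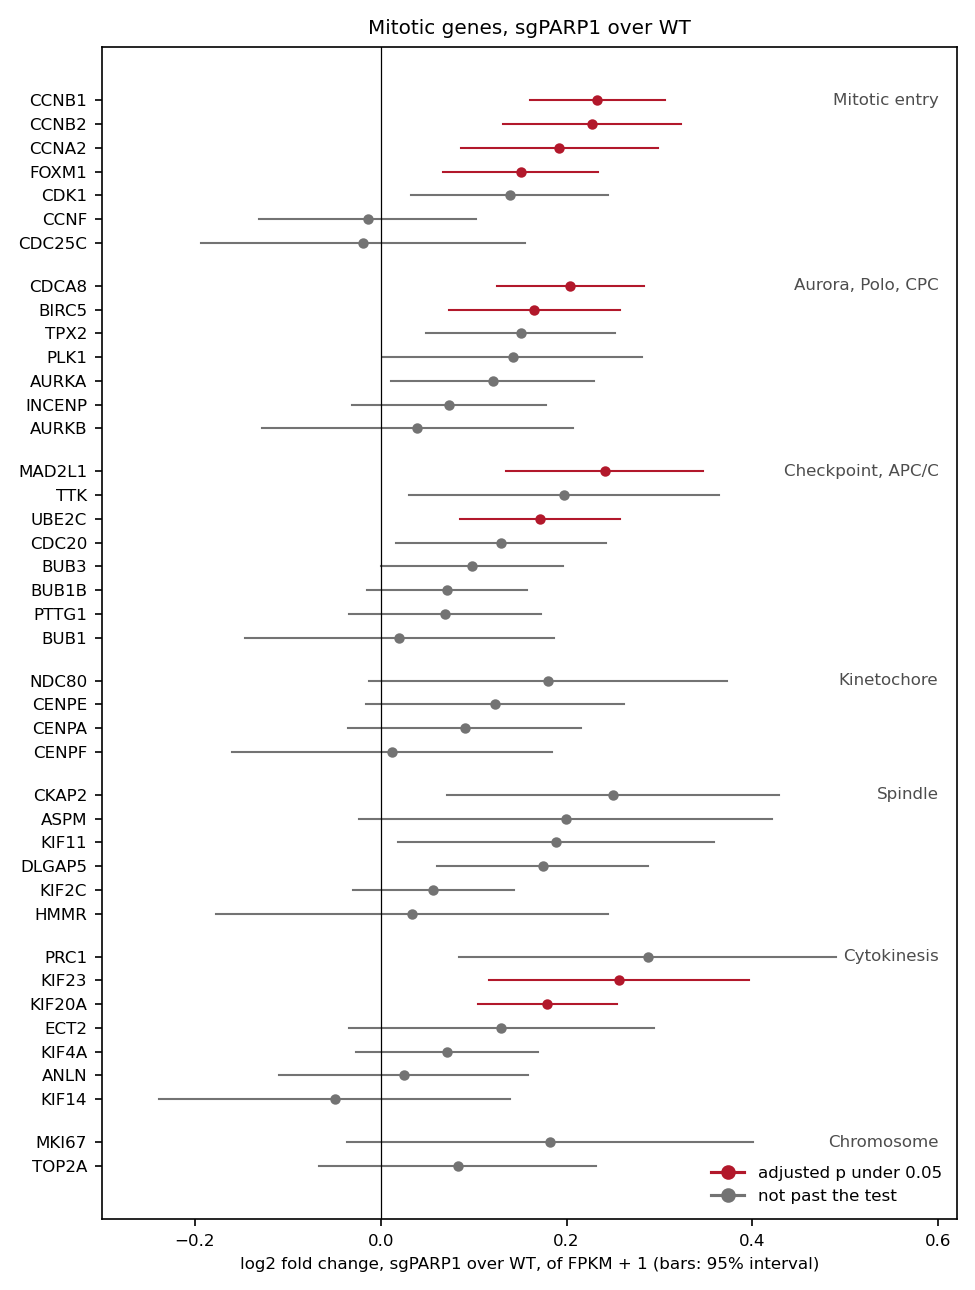
Log2 fold change of FPKM + 1, sgPARP1 over WT (x axis), of the 41 tested mitotic genes, grouped by role. Dots are estimates, bars 95% intervals, and red marks the 10 genes past the test, all to the right of 0.

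Genes of mitotic entry held 4 of the 10 calls, out of 7 tested. CCNB1, cyclin B1, had 120.3, 119.7 and 123 FPKM in sgPARP1 libraries, against 104, 103 and 101 FPKM in WT libraries. All sgPARP1 values lay above all WT values, with 4486 to 5164 reads per sgPARP1 library and 3712 to 4362 per WT library. Its log2 fold change was 0.23 (SE 0.0305, adjusted p = 0.00697), the smallest adjusted p among the mitotic genes. CCNB1 was past the test under all 15 alternative settings, with adjusted p between 0.00285 and 0.0433, and was the only one of the 10 genes of which this holds.

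CCNB2, cyclin B2, had 37.2, 40.4 and 38.7 FPKM in sgPARP1, against 33.4, 32.8 and 32.7 FPKM in WT. Its log2 fold change was 0.23 (SE 0.0402, adjusted p = 0.021), and it stayed past the test in 10 of the 15 settings. CCNA2, cyclin A2, which acts in S phase and at entry, had 51.8, 53.0 and 54.5 FPKM in sgPARP1, against 43.9, 47.5 and 47.7 FPKM in WT (log2 fold change 0.19, SE 0.0446, adjusted p = 0.0489). The transcription factor FOXM1, which activates late cell cycle genes, had 42.9, 42.8 and 43.9 FPKM in sgPARP1, against 39.9, 38.2 and 38.3 FPKM in WT (log2 fold change 0.15, SE 0.035, adjusted p = 0.0489). The groups did not overlap in any of these genes, yet CCNA2 and FOXM1 passed only narrowly, each in 6 of 15 settings.

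The other entry genes did not pass. CDK1, the kinase these cyclins bind, had 33.5, 33.1 and 32.0 FPKM in sgPARP1, against 29.6, 28.5 and 31.2 FPKM in WT, with no overlap and an adjusted p of 0.113. CCNF, the F-box cyclin that acts as a ubiquitin ligase subunit, had 12.9 ± 0.41 FPKM in sgPARP1 and 13 ± 0.62 FPKM in WT, with a 95% interval of its log2 fold change from −0.131 to 0.103. CDC25C, the phosphatase that activates CDK1, had 5.26 ± 0.38 FPKM in sgPARP1 and 5.35 ± 0.47 FPKM in WT, with an interval from −0.193 to 0.155. The groups overlapped in both. Whether the cyclins A and B differ from CCNF or CDC25C in their change was not tested.

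**Figure D2:**
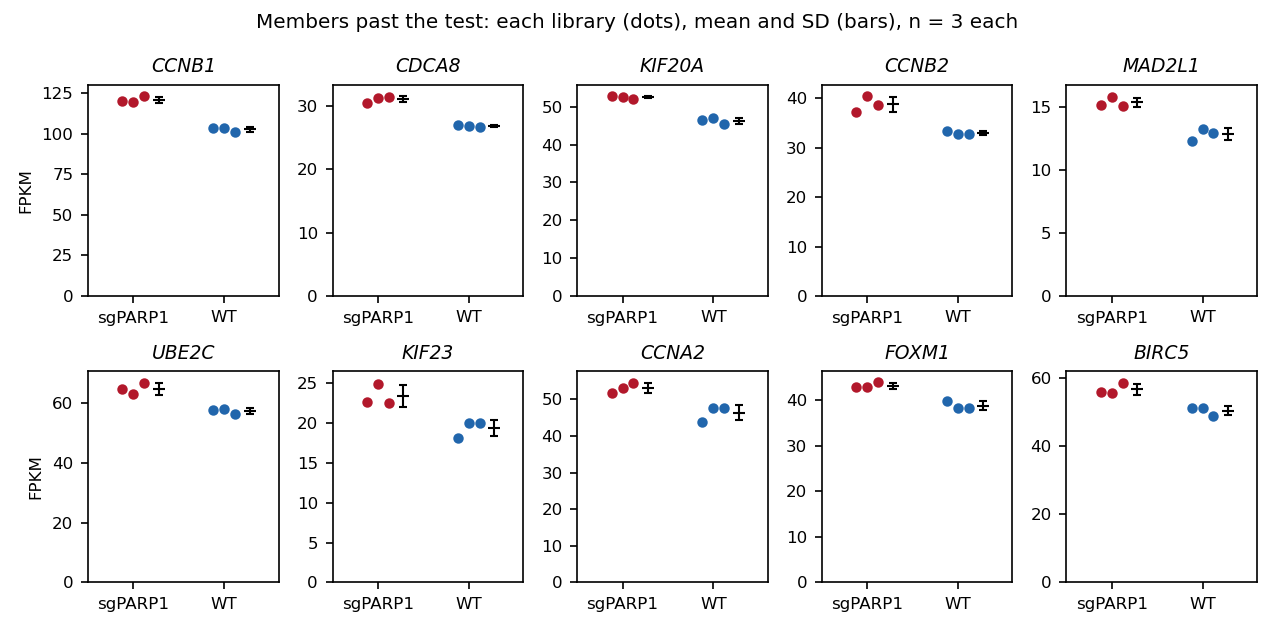
FPKM (y axis, from 0) in each library for the 10 genes past the test, sgPARP1 left and WT right. Dots are libraries and the black marks give the mean with its SD (n = 3 each). In every panel the 3 sgPARP1 dots lie above the 3 WT dots.

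Promoters of many of these genes carry short motifs known from late cell cycle genes: the CHR element, which MuvB binds, and the CCAAT box, which the factor NF-Y binds. The letters TTTGAA and TTCGAA (CHR) and CCAAT were searched on both strands in the 250 bases before the RefSeq start (GRCh38.p14), where 36 of the 43 genes have entries, with 43 starts. A CHR match stood in 53.5% of these starts, against 14.3% of all 35116 starts in the table. A CCAAT match stood in 79.1%, against 32.0%, and both stood in 46.5%, against 5.05%. For 28 genes of DNA replication and the G1/S transition, with 37 starts, the shares were 5.41% for CHR and 64.9% for CCAAT. Of the 7 called mitotic genes with an entry, each with 1 start, 3 held a CHR match and all 7 held a CCAAT match, against 20 and 27 of 36 starts of the other mitotic genes. A match is only a match of letters, and starts of 1 gene can share bases. Other forms of the CHR element were not searched, so a start without a match may still hold one.

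The 120 bases before the start are shown for the called genes with a CHR match, and for CCNB1, added after its values were seen because its call was the firmest. Sequences run 5′ to 3′ on the gene's strand, all plus, at chr5:69167030-69167149 for CCNB1, chr1:37692396-37692515 for CDCA8, chr15:59105026-59105145 for CCNB2 and chr15:69414229-69414348 for KIF23. Capitals mark CHR matches (TTTGAA) and CCAAT matches (CCAAT, or ATTGG on the other strand).
CCNB1: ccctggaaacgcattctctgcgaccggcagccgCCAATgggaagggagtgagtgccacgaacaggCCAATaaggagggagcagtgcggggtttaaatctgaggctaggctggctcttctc
CDCA8: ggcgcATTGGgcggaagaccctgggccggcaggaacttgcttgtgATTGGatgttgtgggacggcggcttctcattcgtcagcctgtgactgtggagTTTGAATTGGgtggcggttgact
CCNB2: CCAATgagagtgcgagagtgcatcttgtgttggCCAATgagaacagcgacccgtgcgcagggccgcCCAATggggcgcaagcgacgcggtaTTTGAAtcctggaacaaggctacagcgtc
KIF23: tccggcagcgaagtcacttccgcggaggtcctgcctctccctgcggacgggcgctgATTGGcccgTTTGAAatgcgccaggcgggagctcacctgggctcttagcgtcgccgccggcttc
In CCNB2 the CHR match begins 29 bases before the start, downstream of CCAAT matches that begin 54, 87 and 120 bases before it. In CDCA8 the CHR match begins 23 bases before the start and shares 1 base with a CCAAT match. CCNB1 holds CCAAT matches that begin 55 and 87 bases before its start and no CHR match to these letters in this window. Its bases do hold TTTAAA downstream of both CCAAT matches, which was not among the letters searched.

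Of 7 genes of the Aurora and Polo kinases and the chromosomal passenger complex, CDCA8 and BIRC5 rose, and the median log2 fold change was 0.14. CDCA8, borealin, which brings the complex to centromeres, had 30.5, 31.2 and 31.5 FPKM in sgPARP1 libraries, against 27.0, 26.9 and 26.6 FPKM in WT libraries (log2 fold change 0.20, SE 0.0333, adjusted p = 0.0156). BIRC5, survivin, its partner in the complex, had 55.8, 55.4 and 58.5 FPKM in sgPARP1, against 51.0, 51.3 and 48.8 FPKM in WT (log2 fold change 0.17, SE 0.0388, adjusted p = 0.0498). Neither gene's groups overlap. BIRC5 lies on chromosome 17 among genes that were lower: the median log2 fold change of the 20 nearest tested protein-coding genes was −0.122, the lowest of any mitotic gene tested. BIRC5 stayed past the test in 5 of 15 settings, and CDCA8 in 10.

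The remaining passenger genes were INCENP, the scaffold, at 26.1 ± 1.2 FPKM in sgPARP1 and 24.7 ± 0.4 FPKM in WT, and the kinase AURKB at 32.5 ± 3.2 and 31.5 ± 0.57 FPKM in the same order. Both had overlapping groups. TPX2, the activator of Aurora A at the spindle and 1 of the 5 most abundant mitotic genes, had 88.2, 94.0 and 87.7 FPKM in sgPARP1, against 78.1, 83.5 and 81.2 FPKM in WT. Its groups did not overlap, and its adjusted p was 0.0858. AURKA and PLK1, kinases of centrosome maturation and spindle assembly, were at 57.8 ± 2.1 and 53.5 ± 1.0 FPKM in sgPARP1 and at 53.1 ± 2.2 and 48.5 ± 3.8 FPKM in WT, also without overlap (adjusted p = 0.168 and 0.197).

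Among 8 genes of the spindle checkpoint and of APC/C function, MAD2L1 and UBE2C rose. MAD2L1, the checkpoint protein that holds back CDC20, had 15.1, 15.8 and 15.1 FPKM in sgPARP1, against 12.3, 13.3 and 12.9 FPKM in WT (log2 fold change 0.24, SE 0.0447, adjusted p = 0.0244). UBE2C, the ubiquitin-conjugating enzyme of the APC/C, had 64.6, 62.9 and 66.8 FPKM in sgPARP1, against 57.8, 58.0 and 56.3 FPKM in WT (log2 fold change 0.17, SE 0.0363, adjusted p = 0.0366). UBE2C was the only one of the 10 that voom did not call. MAD2L1 stayed past the test in 8 of 15 settings and UBE2C in 6. Their pseudogenes MAD2L1P1, at 0.295 FPKM in sgPARP1 and 0.0624 FPKM in WT, and UBE2CP5, at 1.66 and 1.21 FPKM, could share reads with them.

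CDC20, the APC/C activator and the most abundant mitotic gene, had 120, 111.5 and 124 FPKM in sgPARP1, against 111.5, 107 and 106 FPKM in WT. The lowest sgPARP1 and the highest WT value thus nearly met, and the adjusted p was 0.155. TTK, the kinase that starts checkpoint signalling, was at 15.4 ± 1.1 FPKM in sgPARP1 and 13.3 ± 0.96 FPKM in WT (adjusted p = 0.147). The checkpoint genes BUB1, BUB1B and BUB3 had log2 fold changes of 0.02, 0.07 and 0.10, and PTTG1, securin, which guards sister chromatid cohesion, 0.07. None of these passed.

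No kinetochore gene passed limma, whether adjusted, unadjusted or with voom. CENPA, the centromeric histone, was at 19.6 ± 0.12 FPKM in sgPARP1 and 18.4 ± 1.2 FPKM in WT, and CENPF, an outer kinetochore protein, at 31.1 ± 2.5 and 30.9 ± 2.1 FPKM in that order. NDC80, which binds microtubule ends, had 16.4, 17.6 and 15.8 FPKM in sgPARP1, against 12.8, 15.5 and 15.4 FPKM in WT, without overlap (log2 fold change 0.18, adjusted p = 0.228). The motor CENPE was at 4.45 ± 0.27 FPKM in sgPARP1 and 4 ± 0.16 FPKM in WT, also without overlap (adjusted p = 0.255). CENPN, which binds CENP-A nucleosomes, was not tested: it had 0.225, 0.114 and 0.123 FPKM in sgPARP1 and 0.286, 0.204 and 0.129 FPKM in WT, from 10 to 28 reads per library.

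Spindle genes had the highest median of the larger role groups, 0.18, yet none of the 6 tested passed (3 were higher at an unadjusted p under 0.05, and voom called CKAP2 alone). CKAP2, a microtubule-associated protein, had 18.2, 20.6 and 17.9 FPKM in sgPARP1, against 14.3, 16.3 and 16.6 FPKM in WT. Its log2 fold change of 0.25 exceeded that of most called genes, but so did its standard error, 0.0752 (adjusted p = 0.0985). ASPM, which organises spindle poles, had 18.0, 20.5 and 17.1 FPKM in sgPARP1, against 14.1, 16.6 and 17.3 FPKM in WT, so that the groups overlapped (log2 fold change 0.20, SE 0.0932, adjusted p = 0.248). The motors KIF11 and KIF2C were at 0.19 and 0.06, DLGAP5, which stabilises kinetochore fibres, at 0.17, and the hyaluronan receptor and spindle protein HMMR at 0.03 on the log2 scale. NUSAP1, a microtubule bundling protein, was not tested, with 0.283, 0.126 and 0.0804 FPKM in sgPARP1 and 0.112, 0.417 and 0.129 FPKM in WT. It overlaps the non-coding gene OIP5-AS1 on the same strand, which had 6.88 FPKM in sgPARP1 and 6.79 FPKM in WT.

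Of 7 cytokinesis genes the kinesins KIF20A and KIF23 rose, both needed to build the midzone and midbody. KIF20A had 52.8, 52.7 and 52.2 FPKM in sgPARP1, against 46.5, 46.9 and 45.5 FPKM in WT (log2 fold change 0.18, SE 0.0315, adjusted p = 0.0202). KIF23 had 22.6, 24.9 and 22.5 FPKM in sgPARP1, against 18.2, 19.9 and 20 FPKM in WT (log2 fold change 0.26, SE 0.0585, adjusted p = 0.0465). KIF23 had the largest log2 fold change of the 10 called genes, and its groups did not overlap. It stayed past the test in only 6 of 15 settings and KIF20A in 8, neither of them with any 1 library left out. PRC1, the midzone bundling protein, had the largest of all 41, 0.29, at a low level of 1.76, 1.94 and 1.58 FPKM in sgPARP1, against 1.36, 1.31 and 1.11 FPKM in WT. These values rest on 150 to 165 reads per sgPARP1 library and 92 to 130 per WT library (adjusted p = 0.0963). With voom on recovered reads PRC1 was called higher. PRC1 shares its strand and place with an overlapping gene, ENSG00000284946, at 3.14 FPKM in sgPARP1 and 2.80 FPKM in WT.

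KIF14, a motor that recruits citron kinase, was the lowest of the 41 by log2 fold change, at −0.05, with 9.66, 9.89 and 8.84 FPKM in sgPARP1 and 8.81, 9.87 and 10.9 FPKM in WT. The groups overlapped. ANLN, the actin-binding scaffold of the cleavage furrow, had 75.9, 82.7 and 72.9 FPKM in sgPARP1, against 72.2, 77.0 and 78.1 FPKM in WT (adjusted p = 0.835). The sign of its small difference turned without sgPARP1 replicate 2 or WT replicate 1 and after a GC correction. The exchange factor ECT2, which starts furrowing, and the motor KIF4A stood at 0.13 and 0.07.

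Of the genes of chromosome structure, TOP2A, the topoisomerase that untangles sister chromatids, had 95.9, 102.6 and 92.8 FPKM in sgPARP1, against 84.2, 95.7 and 95.1 FPKM in WT (adjusted p = 0.472). MKI67, the proliferation marker that coats mitotic chromosomes, had 45, 54.2 and 41.8 FPKM in sgPARP1, against 39.4, 41.4 and 42.5 FPKM in WT (log2 fold change 0.18, adjusted p = 0.283). The groups overlapped in both, and neither passed at an unadjusted p under 0.05 or with voom.

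**Figure D3:**
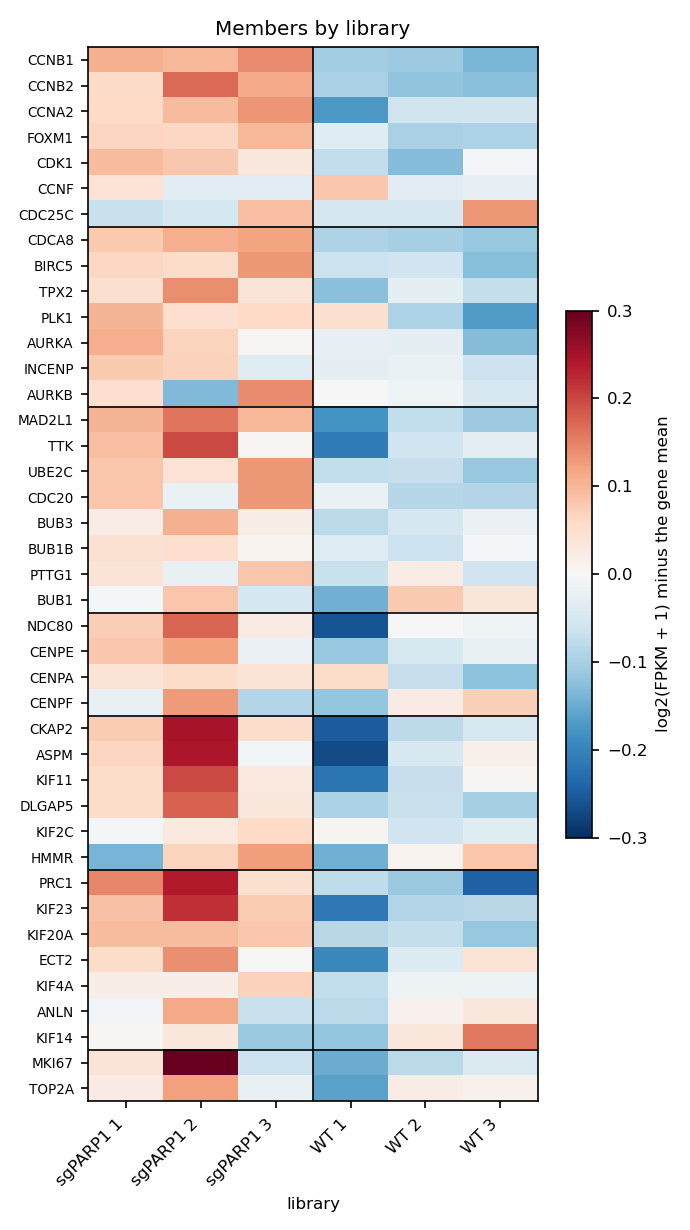
Log2(FPKM + 1) minus each gene's mean over the 6 libraries (colour), for the 41 tested genes (rows, by role) in each library (columns, sgPARP1 left of WT). Red cells are above the gene's mean. The strongest colours are in sgPARP1 2 and WT 1.

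The median deviation of the 41 genes from their own mean was 0.057, 0.094 and 0.041 in the sgPARP1 libraries and −0.092, −0.057 and −0.048 in the WT libraries on the log2 scale, where the median over all genes stayed within 0.0031 of 0. The deviation was largest in sgPARP1 replicate 2 and lowest in WT replicate 1. Without sgPARP1 replicate 2 the median log2 fold change was 0.119, and without WT replicate 1 it was 0.127. These libraries are also the farthest apart on the first principal component over all genes (36.5% of the variance), which separates the groups.

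The spread between libraries of a group differed with base composition. The median within-group coefficient of variation was 6.98% in the 19 genes whose longest transcript has a GC content under the median of 43.2%, and 3.51% in the other 22, against 7.62% over all genes tested. The median log2 fold change was alike, 0.139 and 0.136, while 3 of the 19 and 7 of the 22 were called. After GC content was regressed out, 14 genes were called, all of them higher, the 10 and also CDC20, CKAP2, PLK1 and TPX2. Over all genes the correction also raised the calls, to 809 higher and 835 lower of 12842, from 463 and 585 of 13167. What part base composition has in the result beyond this correction was not tested.

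**Figure D4:**
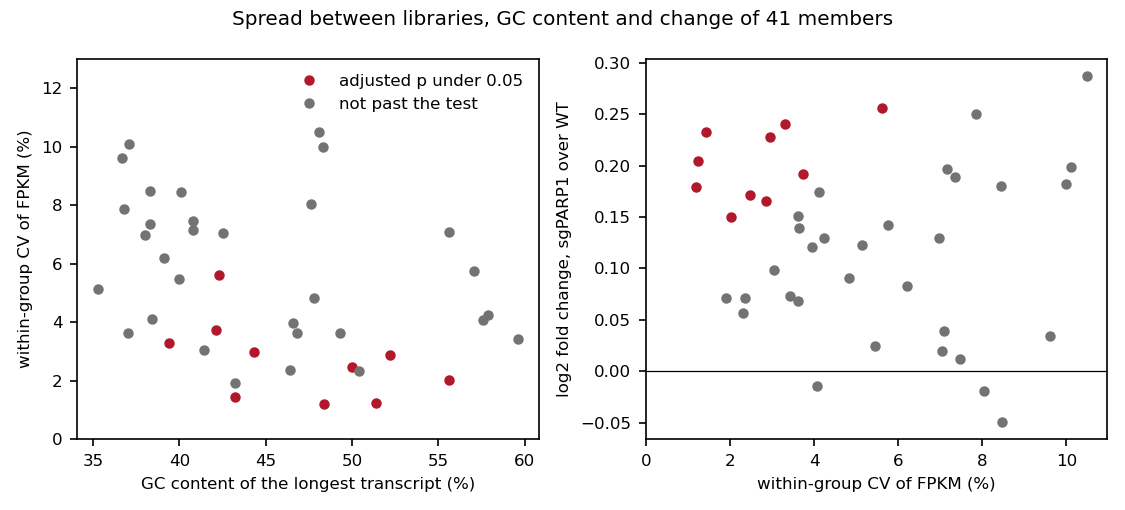
Within-group coefficient of variation of FPKM against GC content of the longest transcript (left), and log2 fold change, sgPARP1 over WT, against that coefficient of variation (right), for the 41 tested genes. Red marks the 10 genes past the test. On the left the 19 genes of lower GC content have a median of 6.98% and the other 22 a median of 3.51%.

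Some called genes overlap another gene, and no source used here says whether reads were counted by strand. CCNA2 overlaps EXOSC9 on the other strand, at 13 FPKM in sgPARP1 and 12 FPKM in WT. FOXM1 overlaps RHNO1, at 16.5 and 15.9 FPKM, and KIF20A overlaps CDC23, at 14.3 and 14.4 FPKM, and BRD8, at 12.7 and 11.8 FPKM, in the same order. FOXM1 also overlaps ITFG2, at 3.18 FPKM in sgPARP1 and 2.7 FPKM in WT. CCNB2 overlaps ENSG00000259732 on its own strand, at 0.717 FPKM in sgPARP1 and 0.615 FPKM in WT. Each partner stood below the mitotic gene in both groups.

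Other genes of division were read from lists of 154 genes that share none with the 43, of which 147 were tested. In all 13 rose and 1 fell, with a median log2 fold change of 0.09, against the 0.00 of all genes. In 58 of the 147 every sgPARP1 library lay above every WT library, against 16.1% of all genes, and in 2 below, against 14.9%. By list, the count above was 18 of 32 replication and G1/S genes, 12 of 24 other spindle genes and 4 of 18 APC/C genes. Over all genes tested 3.52% were called higher and 4.44% lower. The counts of single lists below, such as 1 of 18 APC/C genes, include some near that share, from which nothing is read. Among 30 tested kinetochore and centromere genes 3 rose and none fell. ZWINT, which links the kinetochore to the checkpoint, had 91.7, 90.5 and 92.3 FPKM in sgPARP1, against 75.0, 74.8 and 72.5 FPKM in WT, with a log2 fold change of 0.30 (SE 0.0313, adjusted p = 0.00296). HJURP, the chaperone that loads CENP-A, was at 24.5 ± 0.35 FPKM in sgPARP1 and 19.5 ± 0.71 FPKM in WT (adjusted p = 0.00619), and CENPI at 6.15 ± 0.26 and 5.07 ± 0.24 FPKM (adjusted p = 0.0471). The median of this list was 0.09, beside 0.11 for the 4 tested kinetochore genes above, of which none passed.

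Of 24 other spindle genes PLK4, the kinase of centriole duplication, and FAM83D, which brings casein kinase to the spindle, rose and none fell. PLK4 was at 11.7 ± 0.29 FPKM in sgPARP1 and 9.26 ± 0.25 FPKM in WT (adjusted p = 0.00883), and FAM83D at 51.1 ± 1.9 and 44.7 ± 0.31 FPKM (adjusted p = 0.0309). Of 18 cohesin and condensin genes SMC2, a condensin core subunit, and CDCA5, sororin, rose and none fell. SMC2 had 30.1, 33.0 and 27.9 FPKM in sgPARP1, against 21.6, 24.4 and 23.2 FPKM in WT (log2 fold change 0.38, SE 0.0719, adjusted p = 0.0257). CDCA5 was at 33.4 ± 2.0 FPKM in sgPARP1 and 27.2 ± 0.65 FPKM in WT (adjusted p = 0.0204). Of 18 APC/C genes ANAPC7 alone rose, to 20.6 ± 0.38 FPKM in sgPARP1 against 17.6 ± 0.73 FPKM in WT (adjusted p = 0.0283), and none fell. In these lists no gene was lower at an unadjusted p under 0.05 or with voom.

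Among 25 tested regulators of the cell cycle the inhibitor of cyclin-dependent kinases CDKN1A (p21) fell, with 45.6, 35.7 and 43.9 FPKM in sgPARP1, against 63.6, 61.3 and 65.6 FPKM in WT (log2 fold change −0.60, SE 0.0897, adjusted p = 0.0116). It was the only one of the 147 tested genes of these lists to fall. The related inhibitor CDKN1B (p27) was higher, at 11.3 ± 0.27 FPKM in sgPARP1 and 9.48 ± 0.19 FPKM in WT (adjusted p = 0.0201). In all 22 of the 25, among them members of the MuvB, E2F and retinoblastoma families, did not pass.

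Genes of DNA replication and the G1/S transition act before mitosis and are the nearest neighbours in the cycle. Of 32 tested 3 rose and none fell (unadjusted, 14 were higher and 0 lower at p under 0.05, and with voom none was lower), with a median of 0.10 beside the 0.14 of the mitotic genes. The count was 7 with voom, 8 after a GC correction, 8 among genes averaging at least 5 FPKM, 2 with the replicate block and 0 or 1 with any 1 library left out. Over all genes 3.52% were called higher, and 12.1% were higher at an unadjusted p under 0.05. With voom 646 of all 13167 genes were called higher, and after a GC correction 809 of 12842. Among genes averaging at least 5 FPKM it was 469 of 6601. With the replicate block it was 232 of 13167, and with any 1 library left out 172 to 283. RRM2 had 30.4, 32.3 and 30.3 FPKM in sgPARP1, against 24.1, 25.1 and 26.2 FPKM in WT (adjusted p = 0.0134), and GINS1 and GINS2 also passed (adjusted p = 0.0282 and 0.0237). Whether the change of mitotic genes differs from that of replication genes was not tested.

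**Figure D5:**
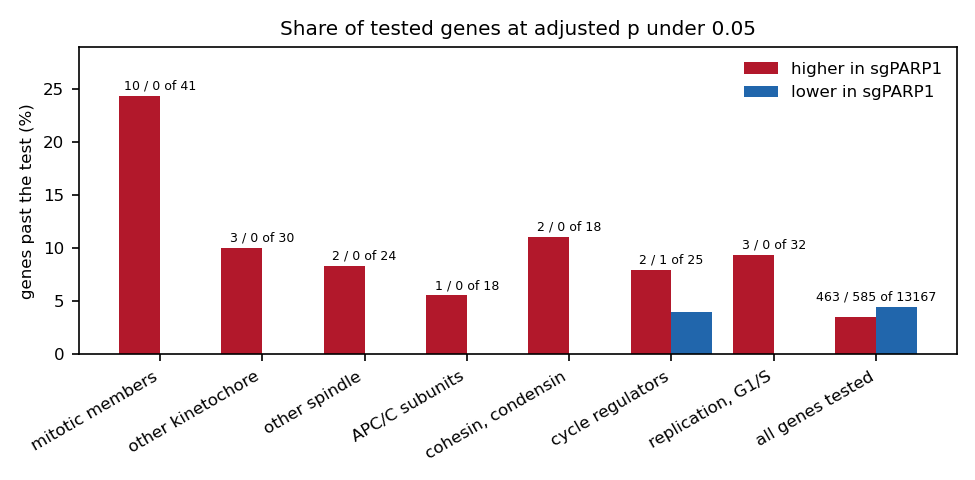
Share of tested genes (y axis, percent) at an adjusted p under 0.05 in each list, higher in sgPARP1 (red) and lower in sgPARP1 (blue). Labels give higher / lower of genes tested. The mitotic genes have 10 / 0 of 41, all genes 463 / 585 of 13167. The shares are not matched for level: the median was 29 FPKM in the mitotic genes and 5.04 FPKM over all genes tested.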

How the data were processed

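Messenger RNA libraries of 3 sgPARP1 and 3 WT samples were grouped and numbered by their titles. The authors deposited FPKM per gene with Ensembl IDs, symbols, coordinates and lengths. Aligner, counter and use of strand: not given in the sources used here. The submitters' processing notes name hg38, GRCm38 and mm10. Of 58260 IDs shared with GENCODE release 29, 99.97% overlap their gene there, so coordinates are hg38. FPKM times length came in whole steps (of values up to 200 reads, none was more than 0.02 off a whole number), from which reads per library were summed.

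The 13167 genes averaging 0.5 FPKM or more entered a moderated test in limma 3.58.1 (R 4.3.3, prior variance following the level) as log2 of FPKM plus a pseudocount of 1. P-values were adjusted by Benjamini-Hochberg over these genes, and called under 0.05. The test was tried on simulated libraries. Alternatives were a pseudocount of 0.1, no filter, a mean of at least 5 FPKM, median-ratio scaling, TPM, voom on the recovered reads, a replicate block, a GC correction with and without it, and each library left out. An exact two-sided permutation test of 3 against 3 libraries cannot go below p = 0.1, which PARP1 reached. Within a group, libraries differed by more than counting noise (chi-square per gene of 3.67 to 7.88), so none was taken for a duplicate. Members and lists were chosen with earlier results of these data known.

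Named genes were PARP1, all members past the test, the 5 most and 3 least abundant members, the 3 highest and 3 lowest by log2 fold change among those not past it, and up to 4 called genes of each other list. A gene that this rule takes is not reported here. Other named genes, and the promoter of CCNB1, were chosen after their values were seen. GC content came from the longest GENCODE transcript (97.53% of tested genes).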

Additional observations from a re-analysis of the deposited data

How the results depend on the processing

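The 15 alternatives kept the median of the mitotic genes above 0, from 0.119 to 0.148, and called no mitotic gene lower. Counts of calls moved more. With no filter on low values 587 genes in all, 5 mitotic genes and 9 of the other lists were called. The replicate block gave 550, 1 and 8. Same-numbered libraries had correlations of 0.041, 0.081 and −0.026. For sgPARP1 replicates 1 and 2 the same-numbered WT library gave the highest correlation, while sgPARP1 replicate 3 went best with WT replicate 1 (0.064). Such small correlations cannot decide whether the numbers pair the libraries. After a GC correction 1644 genes in all and 28 of the other lists were called, and with GC correction and block together 12 mitotic genes. Leaving out 1 library gave 412 to 652 genes in all, 1 to 4 mitotic genes and 4 to 9 of the other lists, with PARP1 between −2.63 and −2.61. The cause was not tested, except that these fits hold fewer libraries.

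The sign turned under at least 1 alternative in 8 mitotic genes, none past the test in the report and none over 0.049 from 0 there. Over the fits without 1 library ANLN ran from −0.026 to 0.064, CCNF from −0.039 to 0.023, CDC25C from −0.069 to 0.041 and KIF14 from −0.12 to 0.018. After GC correction, with or without the block, ANLN went to −0.007 and CCNF to 0.027, BUB1 to −0.006, CENPF to −0.017 and HMMR to −0.005. BUB1 and CENPF were also negative without sgPARP1 replicate 2 (−0.017 and −0.049) or WT replicate 1 (−0.047 and −0.042), HMMR without sgPARP1 replicate 3 (−0.020) or WT replicate 1 (−0.030), and AURKB without sgPARP1 replicate 3 (−0.022). Standard errors of mitotic genes (median 0.049) limit what can be called: the test of the report called none with a ratio of mean FPKM under 1.11.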

Other observations

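Some genes of mitosis that dividing cells use were near 0 in both groups, and were picked out after their values were seen. Beside the members CENPN and NUSAP1, these were the kinetochore genes SPC25, at 0.202 FPKM in sgPARP1 and 0.0965 FPKM in WT, SKA1, at 0.0579 and 0.0409 FPKM, and CENPP, at 0.0713 and 0.0840 FPKM, the motor KIFC1, at 0.138 and 0.132 FPKM, and ARHGAP11A, listed at 0 in all 6 libraries. Partners of the same complexes were not low: NDC80, which binds SPC25 within one complex, stood at 16.6 ± 0.94 FPKM in sgPARP1 and 14.6 ± 1.5 FPKM in WT. A value near 0 in this table need not mean that the RNA is absent.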
